A study of Mus musculus with 8 samples.

Results

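The 9 genes Gria1, Gria2, Gria3, Gria4, Grik1, Grik2, Grik3, Grik4 and Grik5 encode the pore-forming subunits of the AMPA and kainate receptors, and their open chromatin was described in 8 ATAC-seq libraries of mouse brain. They were taken by name, 9 out of 21887 protein-coding genes, and all 9 were found in the gene table. ATAC-seq marks accessible DNA by the cuts of the Tn5 transposase, and the deposited data are lists of peaks, 1 list per library. All mice had the C57Bl/6J background. Coronal brain sections, with cortex, hippocampus and dLGN (dorsal lateral geniculate nucleus, the visual relay of the thalamus), came from untreated mice aged 27 days. Of these, 2 libraries were from Fn14 KO mice, in which Tnfrsf12a, the gene of the TWEAK receptor Fn14, is targeted, and 2 from WT littermates. Microdissected dLGN came from mice aged 32 days that had been fed 1 of 2 diets from day 20 on. Of these, 2 libraries were from mice given PLX chow, spelled PLX5562 in the labels and given to deplete microglia, and 2 from mice given control chow. The labels do not say whether the libraries of a group came from separate animals or from pools, nor how the Fn14 allele was made, so p-values measure only the spread between these libraries.

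AMPA and kainate receptors are ion channels opened by glutamate, each built from 4 subunits around a central pore. AMPA receptors carry most of the fast excitatory current in the brain, including that of retinal and cortical synapses on dLGN relay neurons. Kainate receptors act on both sides of the synapse and shape transmitter release as well as slower currents. Bulk chromatin mixes all cell types of the tissue, so more cells of a type and more open chromatin per cell cannot be told apart in any value below.

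Peaks of a library that overlapped were merged into regions, and each library contributed its 50000 strongest regions by −log10 p (called selected), so that all lists had 1 length. A region belonged to a gene when it overlapped the gene body extended by 20 kb on either side. The rank of a region is its place by −log10 p within its own library, with 1 the strongest, and it was used only up to 192168, the length of the shortest list. The fold is the enrichment over the local background of that library. Both −log10 p and fold are the authors' values for each peak and depend on the library, so comparisons between libraries rest on overlaps, counts in lists of 1 length and ranks.

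The libraries held 248989 to 299822 peaks. The weakest selected region had a −log10 p of 25.2 to 33.0 in dLGN and 13.4 to 21.5 in sections. Equal −log10 p values thus did not mean equal ranks in the 2 tissues. Tnfrsf12a, the gene targeted in the knockout, had a region at 23677365 to 23677642 of chromosome 17 with no peak in KO 1 or KO 2 and, as −log10 p, 13.6 in WT 1 and 8.02 in WT 2. Fixed marker genes of cortical and hippocampal excitatory neurons had 13 to 15 selected regions in the dLGN libraries and 19 to 22 in the section libraries. Marker genes of thalamic neurons had 33 to 45 in dLGN and 35 to 38 in sections, which overlapped, and of these 8 genes Foxp2 had more in all dLGN libraries (10 to 15 in dLGN, 3 to 8 in sections), Rora had fewer (5 to 10 in dLGN, 11 to 17 in sections) and the other 6 overlapped. Microglial markers had 11 to 14 in dLGN and 14 to 16 in sections, with Itgam at 0 in all libraries, and inhibitory neuron markers 12 to 18 in both, with Lhx6 at 0.

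The chromatin at the starts and gene ends is shown first, because 7 of the 8 regions over them were selected in all 8 libraries. The RefSeq promoter table (build GRCm38.p6, which is mm10) held 6 of the 9 members, and the 250 bases before the annotated start are printed 5′ to 3′ on the gene's strand. Capitals mark the GC box (GGGCGG, bound by Sp1-type factors) and the CCAAT box (CCAAT), each searched on both strands. Gria2, Gria4 and Grik2 are shown as starts whose 250 bases hold a selected peak in all libraries, Grik4 as a start where the peak over these bases ranked 8077 to 51653, Grik3 as a start with a weak peak, and Grik5 as a start with no peak in these 250 bases. The Grik5 stretch lies inside the gene, whose upper end is at 25075694, so it does not describe the chromatin at that end. The stretches of Gria2, Grik2, Grik3 and Grik4 also lie inside their genes. Distances beyond a gene are measured from the gene ends, not from these starts.
Gria2 (chr3:80802836-80803085, minus strand): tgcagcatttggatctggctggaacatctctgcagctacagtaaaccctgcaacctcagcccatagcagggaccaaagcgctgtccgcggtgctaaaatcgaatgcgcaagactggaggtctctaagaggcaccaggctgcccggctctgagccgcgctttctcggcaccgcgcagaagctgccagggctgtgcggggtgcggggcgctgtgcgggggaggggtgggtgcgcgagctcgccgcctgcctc
Gria4 (chr9:4796235-4796484, minus strand): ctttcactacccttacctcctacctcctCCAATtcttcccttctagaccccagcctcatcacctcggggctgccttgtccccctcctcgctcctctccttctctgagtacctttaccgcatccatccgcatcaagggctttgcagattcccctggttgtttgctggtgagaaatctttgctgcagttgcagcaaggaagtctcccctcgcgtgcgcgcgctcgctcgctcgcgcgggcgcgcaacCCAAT
Grik2 (chr10:49788755-49789004, minus strand): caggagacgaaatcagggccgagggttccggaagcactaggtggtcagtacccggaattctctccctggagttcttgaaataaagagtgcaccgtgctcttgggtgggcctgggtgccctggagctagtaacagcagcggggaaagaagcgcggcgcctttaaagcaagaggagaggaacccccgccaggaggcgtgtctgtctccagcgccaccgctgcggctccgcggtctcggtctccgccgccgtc
Grik4 (chr9:42944372-42944621, minus strand): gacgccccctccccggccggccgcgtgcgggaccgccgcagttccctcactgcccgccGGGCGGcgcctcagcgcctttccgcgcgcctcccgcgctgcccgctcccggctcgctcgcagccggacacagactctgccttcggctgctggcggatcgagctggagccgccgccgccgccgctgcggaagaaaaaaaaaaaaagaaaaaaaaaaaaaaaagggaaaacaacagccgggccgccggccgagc
Grik3 (chr4:125490446-125490695, plus strand): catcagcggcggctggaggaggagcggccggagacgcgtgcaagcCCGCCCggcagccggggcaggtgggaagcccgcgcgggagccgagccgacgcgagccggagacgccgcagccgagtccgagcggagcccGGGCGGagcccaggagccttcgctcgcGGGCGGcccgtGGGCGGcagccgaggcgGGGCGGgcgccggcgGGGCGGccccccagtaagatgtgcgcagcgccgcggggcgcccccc
Grik5 (chr7:25072370-25072619, minus strand): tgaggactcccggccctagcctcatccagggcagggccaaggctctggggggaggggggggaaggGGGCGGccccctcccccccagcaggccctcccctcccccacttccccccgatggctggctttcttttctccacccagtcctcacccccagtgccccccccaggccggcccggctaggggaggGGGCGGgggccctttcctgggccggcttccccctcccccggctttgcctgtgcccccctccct

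All 6 stretches were richer in G and C than the median of 52.4% over 32851 promoters, from 58.8% in Gria4 to 82.0% in Grik3. The GC box occurred 6 times in Grik3, 2 times in Grik5 and once in Grik4, and 32.7% of all promoters hold at least 1. The CCAAT box occurred 2 times in Gria4 and in none of the others, and 33.8% of all promoters hold it. A search of both strands found none of 4 other motifs in these stretches. These were the TATA box (letters TATAAA), which 12.4% of all promoters hold, the AP-1 motif (letters TGANTCA) at 6.75%, the CRE (letters TGACGTCA) at 1.55% and the NRF1 motif at 0.782%. No motif overlapped another in these stretches.

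In 7 members the region over the start or a gene end was selected in all 8 libraries, and the steadiness of its rank differed between them. The regions over the starts of Gria4 and Grik2 held nearly 1 rank throughout. The Gria4 start region (chromosome 9, 4795084 to 4796595) had ranks of 8626 and 7524 under PLX chow, 8599 and 10635 in control chow, 6974 to 8480 in KO and 8304 and 8890 in WT, and its −log10 p was 135 to 192 in dLGN and 69.5 to 113 in sections. The Grik2 start region (chromosome 10, 49788218 to 49789306) had ranks of 7033 to 8155 in dLGN and 5885 to 7555 in sections, with a fold of 8.95 to 9.58 in dLGN and 7.31 to 8.37 in sections. Both overlapped between tissues.

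Gria2 encodes GluA2, the subunit whose edited pore keeps most AMPA receptors closed to calcium. Its start region (chromosome 3, 80802497 to 80803383) ranked 6268 and 6019 in PLX chow and 7696 and 5893 in control chow, against 9493 and 9817 in KO and 10805 and 10968 in WT, so every dLGN library had the stronger rank (exact permutation test, 2-sided p = 0.0286, the smallest that 4 libraries against 4 allow, and adjusted 0.0505 over 90690 regions). Grik4 encodes GluK4, a high-affinity kainate subunit that needs a partner subunit to form a channel. Its start region (chromosome 9, 42943920 to 42945250) was the reverse, with ranks of 36087 and 24516 in PLX chow and 22243 and 21893 in control chow, against 8077 and 12486 in KO and 17559 and 15509 in WT (exact permutation p = 0.0286, adjusted 0.0505). At the upper gene end of Grik1, the gene of the kainate subunit GluK1, the region at 88289157 to 88290940 of chromosome 16 ranked 7343 to 13762 in dLGN and 14946 to 28287 in sections, again without overlap.

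Grik3, the gene of GluK3, a kainate subunit of low glutamate affinity, had a weak start. The region over it (chromosome 4, 125489794 to 125491274) had a peak in all 8 libraries but was selected only in KO 1, with a −log10 p of 3.82 and 9.59 in PLX chow, 9.76 and 12.2 in control chow, 21.8 and 15.2 in KO and 4.81 and 4.26 in WT. The strongest region of Grik3 lay instead in the gene body at 125702579 to 125703724, with 95.7 to 153 in dLGN and 51.5 to 76.0 in sections. Its ranks overlapped, with a mean of 12827 in dLGN and 13144 in sections (exact permutation p = 0.857). Gria1 (chromosome 11, 57011082 to 57012100) and Gria3 (chromosome X, 41399965 to 41400941) had their best mean rank at the lower gene end, and both regions were selected in all 8 libraries and overlapped between tissues. Gria1, Gria3 and Grik1 were not among the promoters of the table. The strongest region assigned to Grik5 (chromosome 7, 25076778 to 25077653) had ranks of 951 to 2554 in all libraries. It lay 1084 bp beyond the upper gene end, which is not the start printed above. This region overlapped the neighbour Zfp574, so it cannot be credited to Grik5 alone.

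**Figure D1:**
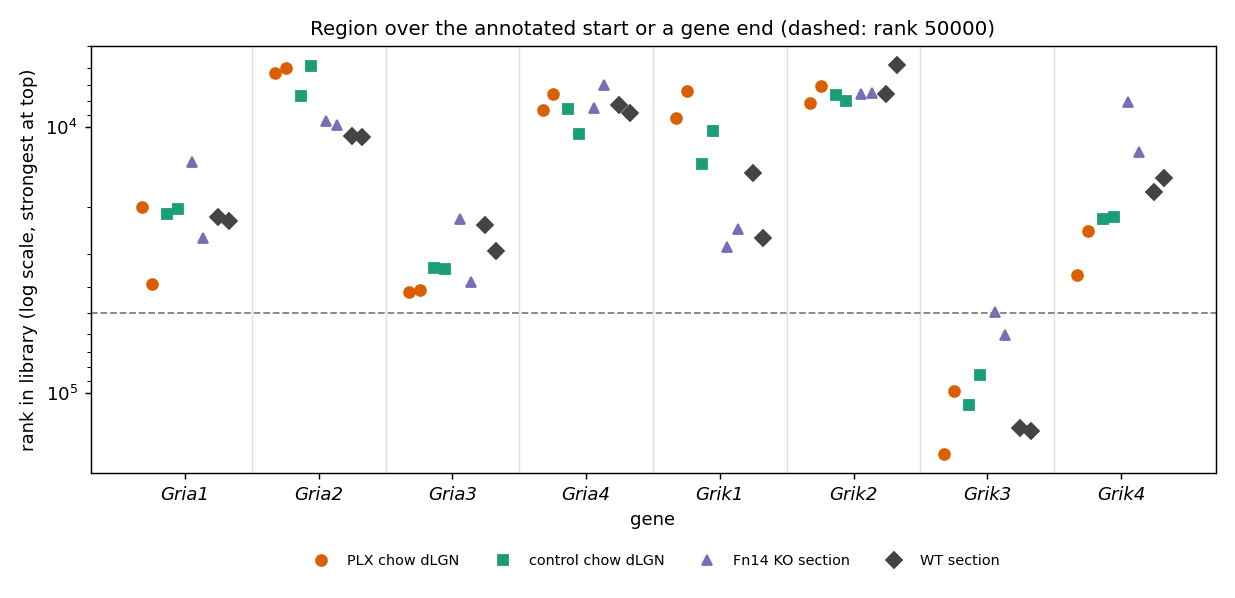
Rank of the region over the annotated start (Gria2, Gria4, Grik2, Grik3, Grik4) or over a gene end (Gria1, Gria3, Grik1) in each library, on a log scale with the strongest rank at the top; each point is 1 library and the dashed line is rank 50000. Gria4 and Grik2 stay between 5885 and 10635 in all 8 libraries, Gria2 is stronger in all dLGN libraries, Grik4 is weaker in all dLGN libraries, and Grik3 reaches the first 50000 in 1 KO library only.

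The selected regions of the 8 libraries merged into 108 regions at the 9 genes, 47 at AMPA and 61 at kainate receptor genes, out of 90690 in the genome. Of the 108, 90 lay in gene bodies, 10 in the flanks and 8 over an annotated start or a gene end. Of the 8 at starts and ends, 7 were selected in all libraries, against 10 of the 90 in gene bodies and 1 of the 10 in flanks. Over all members 16.7% of regions were selected in all 8 libraries (25.6% of all regions in the genome), and 27.8% in a single library (20.3% of all regions). The windows of the genes were long, from 106 kb for Grik5 to 736 kb for Grik2. They had 0.865 to 2.99 selected regions per 100 kb with a median of 1.5. The median was 3.55 over all genes tested and 2.53 over the 4077 with windows of 100 kb or more. Gria2, at 2.99, lay above both the member median and the latter. Genes with windows of equal length were not compared.

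The first comparison set dLGN against sections, which differ in tissue, in age and in how the tissue was taken, so these cannot be told apart. PLX-fed mice are among the dLGN samples, and Fn14 KO mice among the sections. In total the members had 50, 45, 44 and 51 selected regions in the PLX chow and control chow libraries and 48, 54, 49 and 55 in the KO and WT libraries, which overlapped. Of the 9 genes, 2 had fewer selected regions in every dLGN library than in any section library and 0 had more. Over all 18144 genes tested, 8.90% had fewer in this sense and 6.54% had more, and 10.8% and 11.7% of the genes with windows of 100 kb or more. The median log2 ratio of dLGN over section, with 0.5 added to mean counts, was 0.10 over the members and 0.00 over all genes. No gene passed the exact permutation test after Benjamini-Hochberg adjustment, since the smallest possible p of 0.0286 became 0.185, and 2801 genes had an unadjusted p under 0.05.

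Gria1 encodes GluA1, the AMPA subunit that is inserted into synapses during potentiation. It had 7 and 5 selected regions under PLX chow, 7 and 7 under control chow, against 9 in each of the 4 section libraries, a mean of 6.50 ± 1.00 in dLGN and 9 ± 0 in sections (SD, n = 4 each, exact permutation p = 0.0286, adjusted 0.185). Grik4 had 5, 5, 5 and 6 in dLGN, against 11 and 8 in KO and 7 and 9 in WT, a mean of 5.25 ± 0.50 in dLGN and 8.75 ± 1.71 in sections (SD, n = 4 each, exact permutation p = 0.0286, adjusted 0.185). For both genes the groups did not overlap, and the control chow libraries alone (7 and 7 for Gria1, 5 and 6 for Grik4) lay below the WT libraries alone (9 and 9, 7 and 9). The other 7 genes overlapped. Grik2, the gene of GluK2, the most widespread kainate subunit, had 10 in every dLGN library and 5 to 11 in sections. Grik1 had 9, 8, 7 and 10 in dLGN and 6, 7, 9 and 7 in sections. The AMPA subunit genes Gria2, Gria3 and Gria4 averaged 4.25, 3.00 and 5.25 in dLGN and 5.50, 2.50 and 4.25 in sections, and the kainate subunit genes Grik3 and Grik5 3.25 and 1.5 in dLGN and 3.00 and 3.00 in sections.

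**Figure D2:**
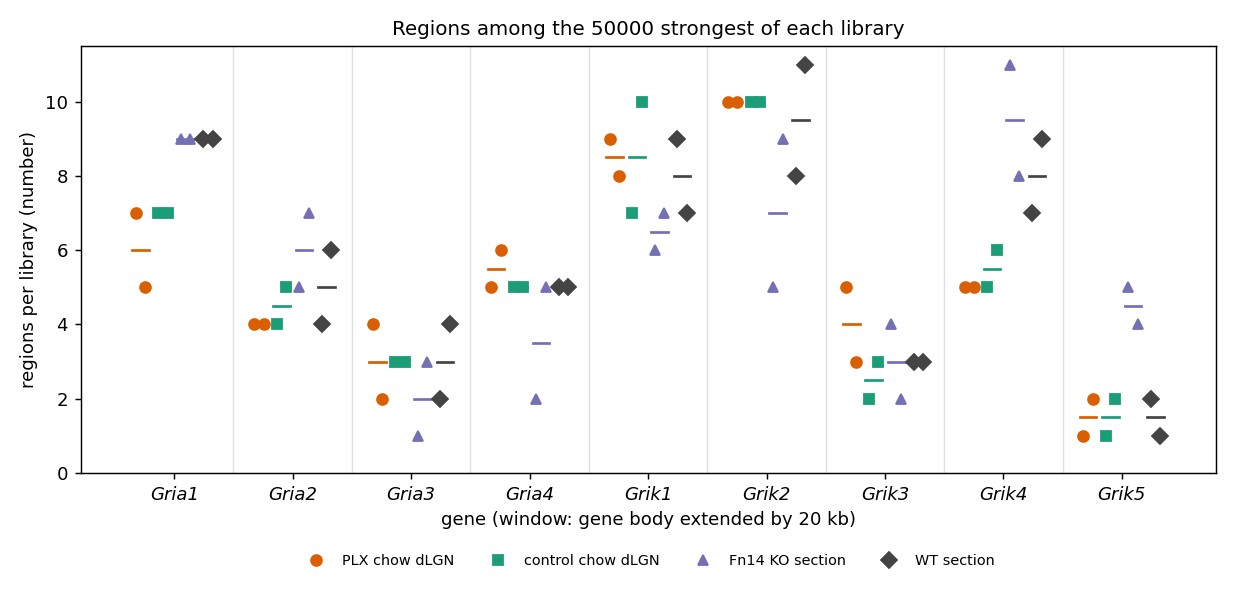
Number of regions among the 50000 strongest of each library in the window of each gene; each point is 1 library and each short line the mean of the 2 libraries of a group. Gria1 and Grik4 lie lower in all dLGN libraries than in any section library, and the points of the other genes overlap between tissues.

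Single regions differed in both directions. Of the 108 regions, 26 had a stronger rank in all 4 dLGN libraries than in any section library and 36 a weaker one, 24.1% and 33.3%, where all 90690 regions gave 27.5% and 29.0%. The members were thus close to the genome in this respect, and the regions below describe where the differences lay, not a property of these genes. By the stricter rule, which asks that a region be selected in all 4 libraries of 1 tissue and lack a deposited peak in all 4 of the other, 1 region was called for dLGN (background 1.05%) and 3 for sections (background 1.90%). No region passed the exact permutation test after adjustment over 90690 regions (smallest adjusted p = 0.0505), while 51301 of them, and 62 of the 108, had an unadjusted p under 0.05.

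Among the AMPA genes, Gria1 held at 57215895 to 57216702, inside the gene, a region with a −log10 p of 127 and 77.7 in PLX chow and 145 and 101 in control chow, against 13.6 and no peak in KO and 4.97 and no peak in WT. In the same gene the region at 57030415 to 57030944 had no peak in any dLGN library, against 48.0 and 30.9 in KO and 14.5 and 19.9 in WT. A shared region of the gene, at 57044022 to 57045305, had 62.1 to 86.4 in dLGN and 17.0 to 36.9 in sections, with ranks that overlapped. Gria1 thus had 3 regions stronger in dLGN and 7 weaker, and 9 whose ranks overlapped. Gria2 had a shared region at 80800222 to 80801674 with 53.8 to 93.0 in dLGN and 20.5 to 39.8 in sections, and ranks that overlapped (exact permutation p = 0.314). At Gria2 the region 129 bp beyond the gene's end (chromosome 3, 80680764 to 80681321) had 237, 125, 162 and 137 in dLGN, with a fold of 14.0 to 19.4, against 21.7 and 2.57 in KO and 10.0 and no peak in WT. The Gria2 region at 80697457 to 80698163 was opposite, with 4.37, 6.19, 6.62 and 2.71 in dLGN and 39.7, 47.6, 27 and 29.3 in sections.

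Gria4, the gene of the fast AMPA subunit GluA4, had 3 regions of each kind. The region at 4689735 to 4690199 of chromosome 9 had 146, 108, 152 and 96.5 in dLGN, against 9.95 and 4.51 in KO and 20.3 and 14.2 in WT. The region at 4639085 to 4639800 was called for sections, with no peak in dLGN and 49.3 and 56.9 in KO and 30.5 and 21.7 in WT. Its best-ranked region away from the start, at 4536646 to 4537206, had 43.2 to 66.9 in dLGN and 20.0 to 39.5 in sections, with overlapping ranks. Gria3, the gene of GluA3 on chromosome X, had a region 7948 bp below the gene (41392421 to 41392871) with 74.3, 35.2, 69.0 and 47.0 in dLGN and 7.82 to 13.2 in sections. Inside Gria3 the region at 41543001 to 41543484 had 45.0, 19.3, 15.1 and 29.8 in dLGN, against 3.69 and no peak in KO and 5.49 and no peak in WT. Of its 10 regions, 6 were selected in a single library and 1 in all 8. Of those that were weaker in dLGN, the region at 41572766 to 41573418 had no peak in dLGN and 7.20 to 28.2 in sections.

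Among the kainate genes, Grik1 had 6 regions stronger and 3 weaker in dLGN, and Grik2 had 6 and 7. The single region called for dLGN lay inside Grik1 (chromosome 16, 88263749 to 88264433), with a −log10 p of 64.1 and 41.1 in PLX chow and 43.0 and 29.8 in control chow and no peak in any section library. Grik1 also held a region called for sections, at 88094213 to 88094874, with no peak in dLGN and 23.7, 37.7, 17.8 and 17.4 in the KO and WT libraries. The best-ranked Grik1 region away from the gene end, at 88173854 to 88174901, was shared, with 122 to 207 in dLGN and 64.7 to 89.4 in sections and overlapping ranks. A further region at 88187137 to 88188171 had 6.18 to 9.86 in dLGN and 44.7 to 68.2 in sections. In Grik2 the region at 49447559 to 49448063 of chromosome 10 had 238, 188, 207 and 246 in dLGN, the highest −log10 p of the gene in 3 of these libraries, and 10.7 to 14.0 in sections. Another, at 49436140 to 49436756, was selected in all libraries, with 105 to 199 in dLGN and 36.9 to 70.6 in sections. Its ranks were close, with 5924 to 12706 in dLGN and 12768 to 18216 in sections. The Grik2 region at 49780272 to 49780725 was opposite, with a peak of 6.10 in PLX chow 2 and none in the other dLGN libraries, against 11.1 to 27.2 in sections. Around the start of Grik2, the region just before the gene (49790196 to 49790733) had 51.3 to 96.3 in dLGN and 3.46 to 14.9 in sections.

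At Grik4, 1 region was stronger in dLGN and 6 were weaker, and of its 14 regions 1, in the flank, overlapped the neighbour Arhgef12. The stronger one, at 42712105 to 42712732, had 28.7 to 39.1 in dLGN, against 8.41 and no peak in KO and no peak in WT. The best-ranked region away from the start, at 42897033 to 42898580, was selected in all libraries and had 41.0 to 63.3 in dLGN and 28.9 to 67.9 in sections, with weaker ranks in dLGN. The region at 42642734 to 42643236 was called for sections, with no peak in dLGN and 52.4, 55.9, 39.5 and 16.7 in the KO and WT libraries. Grik5 encodes GluK5, the other high-affinity subunit, and 3 of the 5 regions in its short window lay in the flanks, outside the gene. The 2 inside Grik5, at 25063897 to 25064323 and 25068635 to 25069068, were both weaker in dLGN, the first with no peak there and 3.71 to 27.9 in sections. Grik3 held its most different region at 125658238 to 125658880, with 28.8, 11.8, 26.3 and 15.2 in dLGN, against 3.69 and 4.51 in KO and no peak in WT. Over all members, 4 regions had a peak in every dLGN library and in no section library and 16 the reverse, 3.70% and 14.8%, against 4.30% and 9.32% of all regions.

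**Figure D3:**
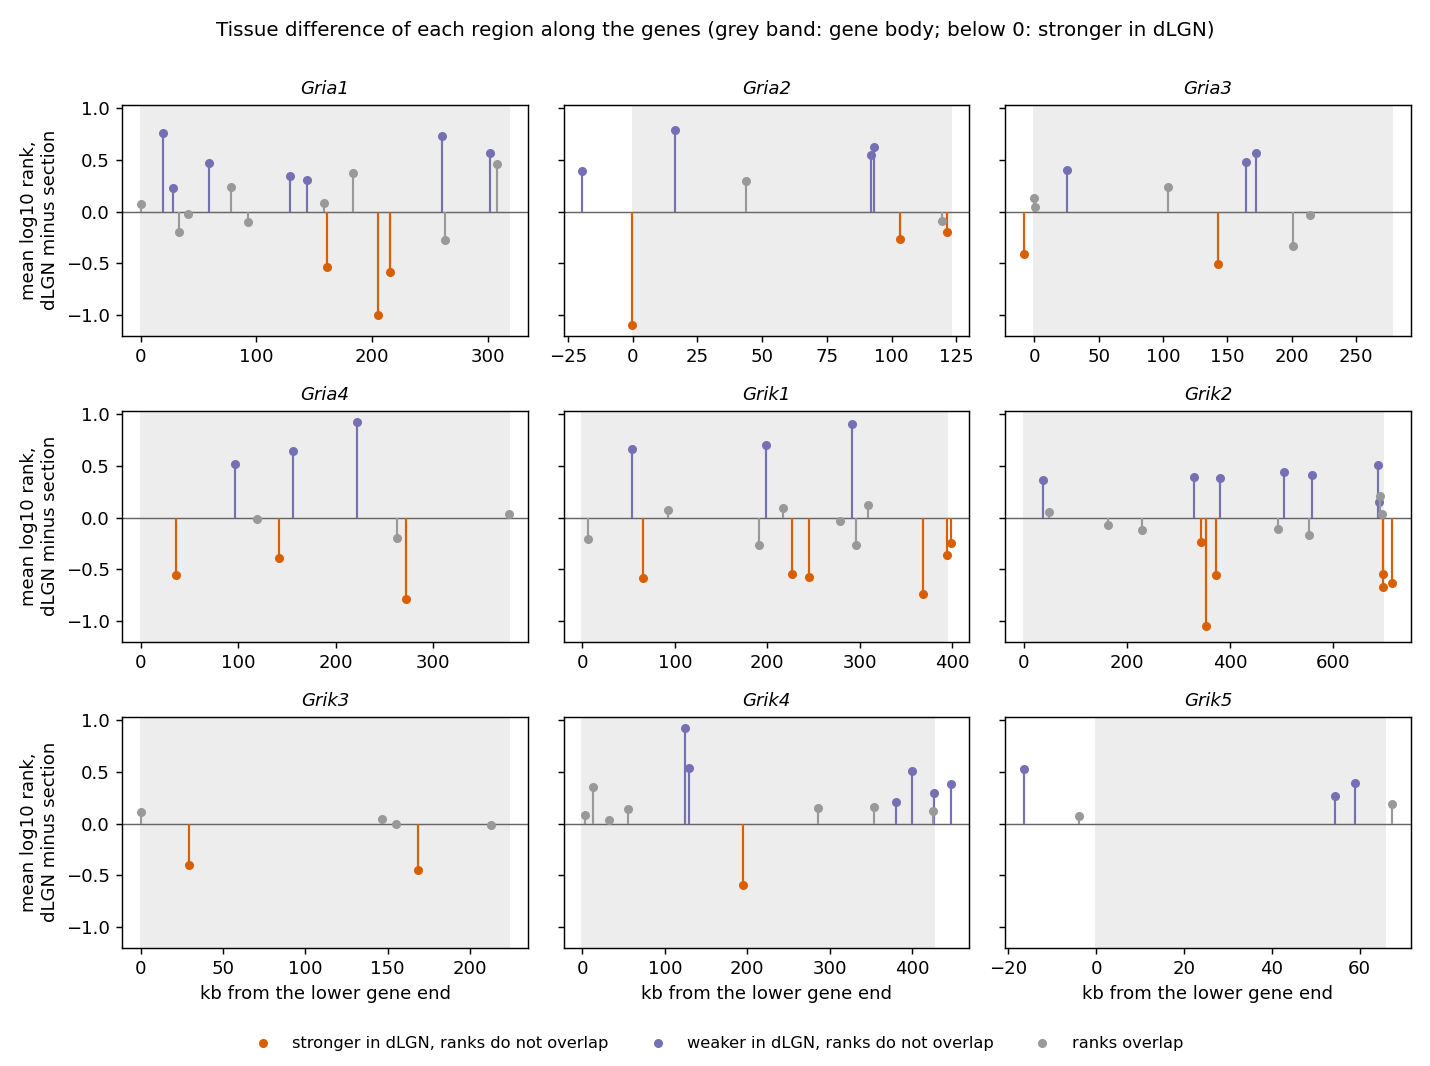
Difference of the mean log10 rank, dLGN minus section (4 libraries each), for each of the 108 regions, plotted by distance from the lower gene end; the grey band is the gene body and values below 0 are stronger in dLGN. Orange (26) and purple (36) points are regions whose ranks do not overlap between tissues, 24.1% and 33.3% of the 108, against 27.5% and 29.0% of all regions in the genome.

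Longer lists brought in weaker regions, and the genes that separated were not all those of the shorter lists. In lists cut to 192168 regions, a length chosen after seeing the data, 1 member had more regions in all dLGN libraries and 7 had fewer, where 6.74% and 9.99% of all genes and 10.3% and 17.2% of those with long windows did. The 192168th region had a −log10 p of only 2 to 3.69, so these counts rest largely on weak peaks. Grik1 was the gene with more, with 72, 64, 54 and 61 regions in the PLX chow and control chow libraries, against 26 and 26 in KO and 31 and 35 in WT, a mean of 62.8 ± 7.46 in dLGN and 29.5 ± 4.36 in sections (SD, n = 4 each, exact permutation p = 0.0286). Grik4 had the opposite, with 26, 28, 27 and 27 in dLGN, against 75 and 60 in KO and 40 and 36 in WT. Gria1 had 49.0 ± 1.41 in dLGN and 65.2 ± 4.86 in sections, Gria2 23.0 ± 3.37 and 35.8 ± 2.99, and Grik2 41.8 ± 2.22 and 65.5 ± 13.9 (SD, n = 4 each). Only Grik3 overlapped, with 21 to 31 in dLGN and 13 to 40 in sections. With 100000 regions, Grik1 was again higher (25.5 ± 1.29 in dLGN and 14.2 ± 2.50 in sections) and Gria2, Gria4, Grik4 and Grik5 were lower, against 7.34% and 8.30% of all genes (11.7% and 12.2% with long windows). Gria1 overlapped at this length, with 18, 17, 20 and 22 in dLGN and 25, 22, 23 and 21 in sections (exact permutation p = 0.0857). The markers of cortical and hippocampal neurons, which also had fewer regions in dLGN, are given above, and their part in these values was not tested.

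**Figure D4:**
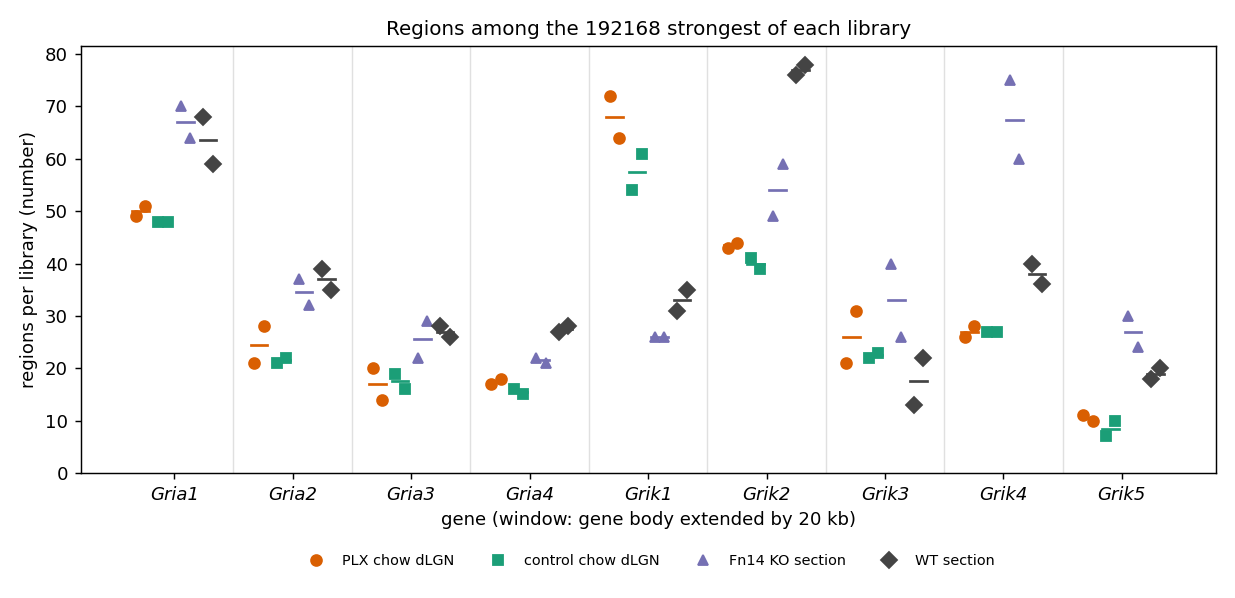
Number of regions among the 192168 strongest of each library in the window of each gene; each point is 1 library and each short line the mean of the 2 libraries of a group. Grik1 lies higher in dLGN (54 to 72) than in sections (26 to 35), Grik4 lies lower in dLGN (26 to 28) and reaches 60 and 75 in the KO sections, and Grik2 has 49 and 59 in KO against 76 and 78 in WT.

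The 32 partner genes of these receptors comprise auxiliary subunits, scaffolds, pentraxins and the enzymes that edit their transcripts. In the tissue comparison 1 of the 32 had more selected regions in all dLGN libraries and 3 had fewer, where 6.54% and 8.90% of all genes did, with 133, 133, 120 and 138 regions in all in the dLGN libraries and 157, 141, 141 and 131 in the KO and WT libraries, and a median log2 ratio of −0.27. Cacng4, the gene of an auxiliary AMPA subunit, had 2, 3, 2 and 2 in dLGN and 1, 0, 1 and 0 in sections. Cnih3, the gene of another AMPA auxiliary protein, had 4 in each dLGN library and 7, 9, 7 and 7 in sections. Neto1, whose product binds kainate receptors, had 4, 3, 4 and 4 in dLGN and 7, 7, 8 and 7 in sections, and Dlg4, the gene of the postsynaptic scaffold PSD-95, had 3 in each dLGN library and 4 or 5 in sections. Each had an exact permutation p of 0.0286, adjusted 0.185.

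The second comparison asked how the loci differ in sections without Fn14. With 2 libraries against 2 the smallest exact p is 0.333, so no test can pass, and values are given as measured. Selected regions at the 9 genes numbered 48 and 54 in KO and 49 and 55 in WT. Of the 9 genes, 1 had more in both KO libraries and 0 had fewer (background 9.13% and 6.31%, or 12.5% and 11.2% with long windows). That gene was Grik5, with 5 and 4 in KO and 2 and 1 in WT, of which 2 and 1 in KO and 0 and 0 in WT overlapped the gene body and the others lay in the flanks and cannot be credited to Grik5 alone. Gria1 had 9 in each of the 4 libraries. Of the 108 regions, 0 were called for KO (background 0.0132%) and 0 for WT (background 0.00441%). Ranks did not overlap for 19 regions stronger in KO and 24 weaker, 17.6% and 22.2%, close to the 17.6% and 19.7% of all regions. The median log2 ratio of KO over WT was 0.00 over the members and 0.00 over all genes.

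These regions were spread unevenly over the kainate genes. Grik2 had 2 regions stronger in KO and 10 weaker, Grik1 had 1 and 6, Grik4 had 5 and 1 and Grik5 had 4 and 0. The Grik4 start region ranked 8077 and 12486 in KO and 17559 and 15509 in WT. Its −log10 p was 118 in KO 1, 66.0 in KO 2, 45.5 in WT 1 and 42.4 in WT 2. In Grik2 the region 17089 bp before the gene, at 49807250 to 49808007, ranked 128888 and 99540 in KO and 34361 and 56190 in WT. In the dLGN libraries it ranked 14699 to 18800. Its −log10 p was 6.68 and 8.26 in KO, 23.6 and 11.9 in WT and 74.6 to 113 in dLGN. In the lists of 192168 regions Grik4 had 75 and 60 in KO, against 40 and 36 in WT, and Grik3 had 40 and 26 in KO and 13 and 22 in WT. Grik2 had 49 and 59 in KO and 76 and 78 in WT, Grik1 26 and 26 in KO and 31 and 35 in WT, and Gria4 22 and 21 in KO and 27 and 28 in WT. In all 3 genes had more and 3 fewer, where 15.8% and 11.2% of all genes and 20.3% and 18.2% of those with long windows did. With 100000 regions 4 had more (Gria4, Grik3, Grik4, Grik5) and 1 fewer (Grik1) (background 11.9% and 8.51%, or 15.7% and 14.8% with long windows). At Gria4 the direction depended on the list, since at that length it averaged 11.5 in KO and 9.5 in WT. Among the 32 partners, 4 exceeded WT in each KO library and 1 was below it, where 9.13% and 6.31% of all genes and 12.5% and 11.2% of those with long windows did. They include Dlg1, a scaffold gene, at 7 and 5 in KO and 2 and 3 in WT, Gsg1l at 5 and 4 in KO and 3 and 2 in WT, Nptx2 at 3 and 2 in KO and 1 and 1 in WT, and Dlg3 at 3 and 3 in KO and 4 and 4 in WT.

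The third comparison set PLX chow against control chow in dLGN, again with a smallest exact p of 0.333. The members had 50 and 45 selected regions in PLX chow and 44 and 51 in control chow. None of the 9 genes differed without overlap in either direction, where 3.12% of all genes had more and 3.49% fewer (6.33% and 5.05% with long windows), and Grik2 had 10 in each of the 4 libraries. Of the 108 regions, 0 were called for PLX chow (background 0.00110%) and 0 for control chow (background 0%). Ranks did not overlap for 9 regions stronger under PLX chow and 13 weaker, 8.33% and 12.0%, against 12.1% and 14.8% of all regions. At the start of Grik4 the ranks were 36087 and 24516 under PLX chow and 22243 and 21893 under control chow. The upper end of Grik1 ranked 9293 and 7343 under PLX chow and 13762 and 10396 under control chow. With 192168 regions 4 genes had more in both PLX chow libraries and 0 fewer (background 8.90% and 8.26%, or 12.6% and 10.8% with long windows), among them Grik1 with 72 and 64 under PLX chow and 54 and 61 under control chow. With 100000 regions 0 had more and 2 had fewer (background 5.65% and 5.67%, or 9.16% and 8.99% with long windows), Gria1 at 17.5 under PLX chow and 21.0 under control chow and Grik3 at 8.50 and 10.5, so the direction depended on the list length. Microglial markers had 12 and 11 selected regions under PLX chow and 14 and 11 under control chow. Of the 32 partners 0 had more and 2 had fewer (background 3.12% and 3.49%), Shisa9 at 2 and 1 under PLX chow and 3 and 3 under control chow and Shisa7 at 3 and 3 under PLX chow and 4 and 4 under control chow. Shisa9 encodes an auxiliary AMPA receptor subunit.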

How the data were processed

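ATAC-seq peak lists of 8 mouse brain libraries, 2 in each of 4 groups, were used as deposited. Per the deposited pipeline instructions, the authors used the ENCODE ATAC-seq pipeline for paired-end reads with build mm10, multimapping 0 and p below 0.01 for peaks. List names record that duplicate and mitochondrial reads were taken out, that a Tn5 step followed and that a list holds at most 300000 peaks, called per sample. Per the submitters' processing notes, deepTools 3.5.0 was also used, with no step named. The aligner and the peak caller are not given in the sources. Each deposited peak has a score (10 times −log10 p, at most 1000), a fold enrichment as a ratio, a −log10 p and a −log10 q-value. There are no read counts, so depth is unknown and no counting interval is given.

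Peaks were merged within a library, and the 50000 strongest regions were compared by overlap of 1 bp or more, by count per gene window (GRCm38.p6 genes) and by rank, with a rank past 192168 or no peak set just past that value. Exact 2-sided permutation tests over libraries were adjusted by the Benjamini-Hochberg method over all genes or regions (Python 3.11.15, numpy 2.4.6), and the code was tested on simulated lists. The alternatives were 25000 or 100000 regions, all deposited peaks, no window extension, other absence and overlap rules, control chow and WT libraries only, a replicate block and leaving out each library. Cutting to 192168 regions was added after seeing the data. Named were all 9 members, the start, strongest, most different and called regions, and up to 3 partners per direction. The Grik2 regions before the gene and the 2 inside Grik5 were named after their values were seen. Members and lists were chosen with earlier results of these data known. Some items that these rules name are not reported here.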

Additional observations from a re-analysis of the deposited data

Results flagged for a closer look

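In 5 cases the count of selected regions in 1 library stood apart from the other 3 libraries of its tissue by Dixon's criterion. The other 3 counts were tied in each case, so the criterion is met by a difference of any size, and its usual rate of about 1 in 20 groups does not hold. In dLGN, Gria1 had 5 in PLX chow 2 and 7 in each other library, and Gria4 had 6 in PLX chow 2 and 5 in each other. Gria2 had 5 in control chow 2 and 4 in each other dLGN library, and Grik4 had 6 in control chow 2 and 5 in each other. In sections, Gria4 had 2 in KO 1 and 5 in each other library. All but the last are differences of 1 or 2 regions between otherwise equal counts.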

How the results depend on the processing

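Counts of members and member regions moved with list length and with the libraries used. With 25000 regions, 1 gene was lower in dLGN, 0 regions were called for dLGN and 0 for sections, 11 were stronger and 12 weaker in dLGN, 0 genes were higher in KO, 8 regions were stronger and 12 weaker in KO, and 6 were weaker under PLX chow. With 100000 regions, 1 gene was higher and 4 lower in dLGN, 5 regions were called for dLGN and 13 for sections, and 59 were stronger and 67 weaker. In the genotype comparison 4 genes were then higher and 1 lower in KO, 1 region was called for KO, and 51 were stronger and 41 weaker. In the chow comparison 2 genes were lower, 1 region was called for control chow, and 27 were stronger and 38 weaker under PLX chow. All deposited peaks gave 1 gene higher and 7 lower in dLGN, and 5 higher and 2 lower in KO. The deposited lists differ in length, with 299822 and 299816 peaks in KO and 256323 and 261201 in WT, so these counts are not on equal terms. Lists of the shortest length gave 1 and 7 in dLGN, 3 and 3 in KO, and 4 higher under PLX chow. Looser absence, and control chow against WT alone, each gave 2 regions for dLGN.

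The replicate numbers mark no shared animal or batch in the labels, and same-numbered libraries deviated together with a correlation of 0.242 for genotype and −0.037 for chow. With the replicate block, 2 genes were higher and 2 lower in KO, 31 regions were stronger and 31 weaker in KO, and 13 were stronger and 20 weaker under PLX chow.

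Leaving out 1 library gave 0 to 1 genes higher and 2 lower in dLGN (1 higher without WT 2), 1 to 2 regions called for dLGN (2 without KO 1) and 3 to 4 for sections, and 26 to 30 stronger and 37 to 40 weaker. It gave 1 to 3 genes higher (3 without KO 2 or without WT 2) and 1 to 4 lower in KO (4 without KO 2), 27 to 39 regions stronger and 36 to 38 weaker in KO, and 0 called for either genotype. Under PLX chow it gave 0 to 2 genes higher and 0 to 3 lower (3 without control chow 1), 20 to 30 regions stronger (30 without PLX chow 2) and 25 to 32 weaker, and 0 called. With fewer libraries groups separate more easily. Depth is unknown, so no limit of detection can be given for a missing peak.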
